A study of Mus musculus with 6 samples.

Results

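Fatty acid oxidation was followed through 37 listed genes: 19 whose proteins work in mitochondria, 17 of peroxisomes, and Ppara, a nuclear receptor that switches many of the others on. Members were found by the symbol column of the deposited array table, with the older symbol Dci counted for Eci1. This matched 35 genes, 18 mitochondrial, 16 peroxisomal and Ppara, through 58 of 23556 probes. Acot2 and Acaa1a were matched by no symbol and are not analysed here. Hadh had a value on only 1 db/+ array and was left untested, so 34 members were tested among 17024 genes.

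RNA came from eWAT, the white fat that lies along the epididymis, of 3 mice that were obese and homozygous (db/db) and 3 lean heterozygotes (db/+), sampled at 10 weeks of age. The db allele is a defect of the leptin receptor gene, so the lean controls carry 1 defective copy themselves. Per the file headers all 6 mice had received vehicle, as had the lean mice whose pooled eWAT RNA filled the Cy3 channel of every array. The Cy5 channel held 1 mouse, and no dye was swapped. Values below are log2 of Cy5 over Cy3, so 0 means equal to the lean pool, and a log2 fold change is the db/db mean minus the db/+ mean. A gene is called where limma, a moderated linear model fitted over all genes, gave a Benjamini-Hochberg adjusted p under 0.05, and only called genes are said to have risen or fallen.

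Long fatty acids enter mitochondria as carnitine esters and are then shortened by repeated rounds of dehydrogenation, hydration, a further oxidation and thiolysis, with the electrons passed to the respiratory chain through electron transfer flavoprotein. Peroxisomes shorten very long and branched chains by a similar cycle that yields hydrogen peroxide, and peroxins build the organelle and import its enzymes. White adipocytes store fat rather than burn it, and oxidise less of it than brown fat, liver or muscle.

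Fatty acid oxidation genes mostly had lower values in obese than in lean mice. By limma 6 of the 34 tested members fell (Phyh, Ppara, Scp2, Ehhadh, Eci1 and Pex6) and 0 rose, whereas 6.68% of all 17024 genes were called, 3.77% lower and 2.92% higher. At an unadjusted p under 0.05 the counts were 18 lower and 1 higher, the latter being Cpt1a, together 55.9% of the members against 23.2% of all genes. In 33 of the 34 members the log2 fold change was below 0, compared with 50.3% of all genes. The median over the members was -0.54, while the median of all probes was 0 on each array. Of 33 members measured on all 6 arrays, 19 had every db/db value below every db/+ value, a pattern shown by 14.7% of all genes, and 1 had every db/db value above, as did 11.4% of all genes (26.1% in either direction). In bulk tissue, fewer cells of a type and less RNA per cell cannot be told apart.

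The calls rested on few arrays. Without db/+ replicate 1, 2 or 3 limma called 0 members, while 0.605%, 0.347% and 0.135% of all genes fell, and 15, 15 and 16 members had an unadjusted p under 0.05, as did 18.8%, 18.6% and 17.1% of all genes. Without db/db replicate 2 the count was also 0 (0.605% of all genes fell; 15 members and 19.9% of all genes at an unadjusted p under 0.05). Without db/db replicate 3 it was 2, Etfa and Phyh (1.78% of all genes fell). Without db/db replicate 1 it was 21, all lower (11% of all genes fell), among them the 6 named above. The log2 fold changes of those 6 kept their sign in all of these fits.

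**Figure D1:**
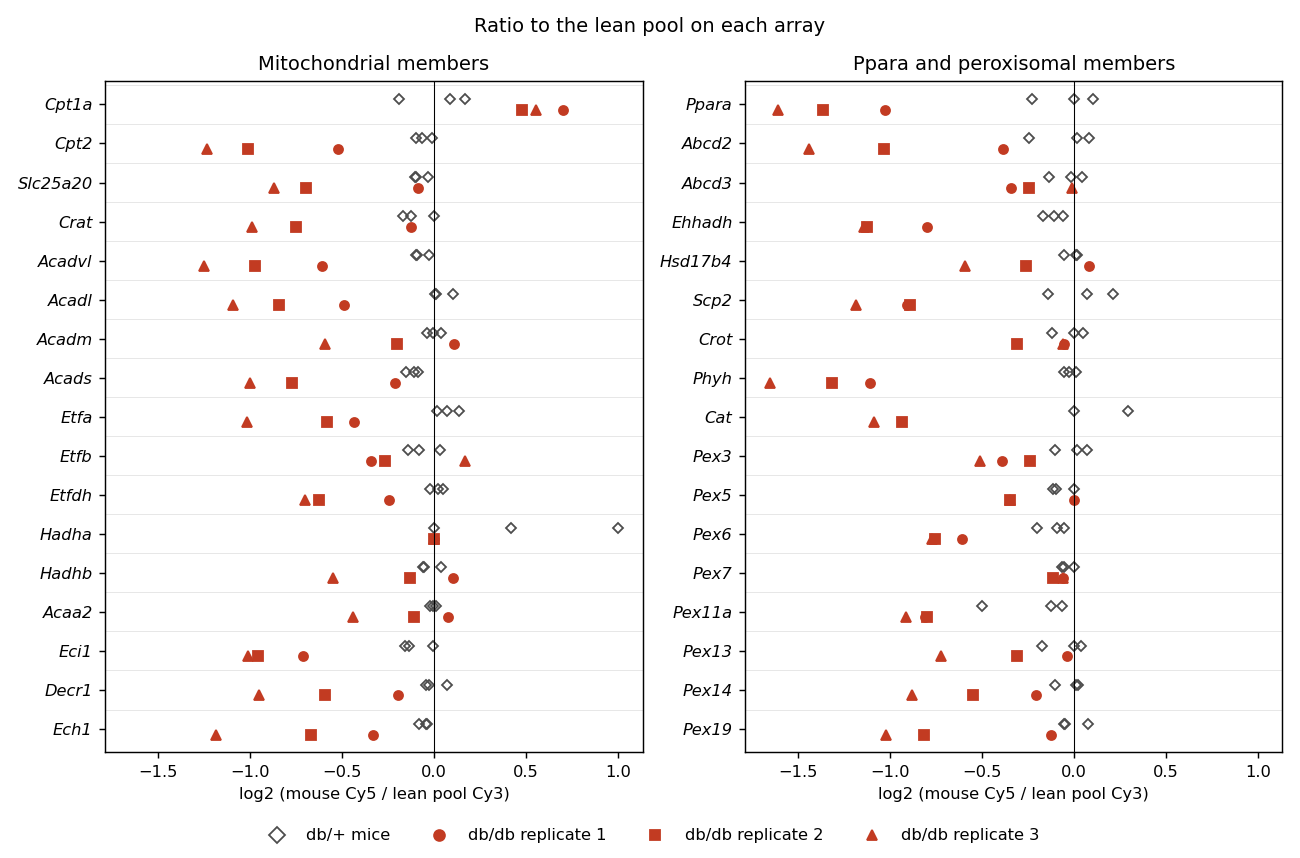
Log2 ratio of each mouse to the lean pool for every tested member, with open diamonds for the 3 db/+ mice and filled symbols for the 3 db/db mice. Most filled symbols lie left of the diamonds, in most rows with db/db replicate 1 nearest to them; Cpt1a lies to the right.

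Carnitine carries fatty acids into the mitochondrion, and the log2 fold changes of the enzymes that load and unload it had opposite signs, though neither passed the test. Cpt1a encodes carnitine palmitoyltransferase 1A, which loads long chains onto carnitine at the outer membrane and sets the pace of the pathway. Its log2 ratios were -0.19, 0.09 and 0.17 in db/+ replicates 1, 2 and 3. In db/db replicates 1, 2 and 3, the order kept below, they were 0.70, 0.48 and 0.55. All db/db mice therefore lay above all db/+ mice, and the log2 fold change was 0.56 ± 0.12 (SE, n = 3 per group; limma adjusted p = 0.0658). Its other probes gave 0.57 and 0.60, the dimmest of them called among all probes (limma adjusted p = 0.0461), where 2.35% of probes were called higher and 3.09% lower. Cpt2 encodes the inner membrane enzyme that takes the chains off carnitine again. Its ratios were -0.01, -0.06 and -0.10 in the db/+ mice and -0.52, -1.01 and -1.23 in the db/db mice, without overlap (-0.86 ± 0.19; limma adjusted p = 0.0722). A probe of Cpt2 of middle brightness gave 0.21 with overlapping groups, and the dimmest gave -0.76.

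Slc25a20, the carnitine-acylcarnitine exchanger of the inner membrane, and Crat, the acetyltransferase for short chains, had log2 fold changes of -0.47 ± 0.22 and -0.52 ± 0.24. In both genes db/db replicate 1 lay among the db/+ mice, at -0.09 for Slc25a20 and -0.13 for Crat. Replicates 2 and 3 lay below, between -0.70 and -0.99. The other 2 probes of Crat gave 0.12 and -0.02, so its probes disagreed in sign.

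Acyl-CoA dehydrogenases take the first step of each round and divide the chains by length. Acadvl, for very long chains, had ratios of -0.10, -0.10 and -0.03 in the db/+ mice and -0.61, -0.98 and -1.25 in the db/db mice. The groups did not overlap, and the log2 fold change was -0.87 ± 0.17 (SE; limma adjusted p = 0.0563). Acadl, for long chains, had ratios of 0.01, 0.01 and 0.10 against -0.49, -0.84 and -1.10, again without overlap (-0.85 ± 0.16; limma adjusted p = 0.0547). All 3 probes of each of these genes lay between -0.73 and -0.87. Acads, for short chains, gave -0.54 ± 0.22 on its brightest probe and -0.36 and -0.04 on the others. Acadm, the medium-chain enzyme, had ratios of 0.11, -0.20 and -0.59 in the db/db mice, which lay on both sides of the db/+ range of -0.04 to 0.04, and a log2 fold change of -0.23 ± 0.19 (limma adjusted p = 0.551).

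Electron transfer flavoprotein collects the electrons of these dehydrogenases and hands them to its own dehydrogenase in the inner membrane. Etfa, its alpha subunit, had ratios of 0.07, 0.01 and 0.13 in the db/+ mice and -0.44, -0.58 and -1.02 in the db/db mice (-0.75 ± 0.16, SE; limma adjusted p = 0.068). Etfdh, which passes the electrons on to ubiquinone, had ratios of -0.02, 0.05 and 0.02 against -0.24, -0.63 and -0.70 (-0.54 ± 0.13; limma adjusted p = 0.0873). Neither pair of groups overlapped. Etfb, the beta subunit that forms a dimer with Etfa, had -0.34, -0.27 and 0.17 in the db/db mice, which overlapped the db/+ mice (-0.08 ± 0.15; limma adjusted p = 0.781). The difference between Etfa and Etfb was not tested.

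Of the later steps of the round, both thiolase genes had overlapping groups. Hadhb, the thiolase subunit of the trifunctional protein, had a log2 fold change of -0.17 ± 0.18 and Acaa2, the thiolase for shorter chains, one of -0.15 ± 0.14 (SE, n = 3 per group). In both of them db/db replicate 1 lay above all db/+ mice, at 0.10 for Hadhb and 0.08 for Acaa2, and replicate 3 below them, at -0.55 and -0.44. The 1 probe of Hadha, the other subunit of that protein, had Cy5 intensities averaging 0.0300 in lean and 0.0233 in obese mice, on a scale deposited in steps of 0.01. Its ratios were 1.00, 0.42 and 0.00 in the db/+ mice and 0.00 in all db/db mice, so its value of -0.47 ± 0.27 rests on differences of a few steps. Hadh, the dehydrogenase for shorter chains, gave 0.26 in db/+ replicate 3 and -0.85, -0.91 and -0.93 in the db/db mice, without a test because the other db/+ arrays held no value. Its mean intensity over both channels was 27.7, near the brightest Cy5 values of the arrays (26.85 to 30.5), so these sizes are approximate.

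Unsaturated chains need auxiliary enzymes to move or remove their double bonds. In all 3 of these genes the groups did not overlap on the probe used. Eci1, the enoyl-CoA isomerase, fell by 0.79 ± 0.10 on the log2 scale, 1.73-fold (SE, n = 3 per group; limma adjusted p = 0.0236). Its ratios were -0.14, -0.01 and -0.16 in the db/+ mice and -0.71, -0.96 and -1.01 in the db/db mice, each db/db mouse well apart from the lean ones. Ech1, a dienoyl-CoA isomerase, had -0.34, -0.67 and -1.19 in the db/db mice and a log2 fold change of -0.67 ± 0.23 (limma adjusted p = 0.166). Decr1, the dienoyl-CoA reductase, had -0.20, -0.59 and -0.95 and a log2 fold change of -0.58 ± 0.20 (limma adjusted p = 0.178). A dim second probe of Decr1, with a mean intensity of 0.0642, gave -0.24 with overlapping groups. In Ech1 and Decr1 the db/db mice differed from one another by more than db/db replicate 1 differed from the lean mice.

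Ppara, the receptor that fatty acids activate to raise transcription of many oxidation genes, fell by 1.29 ± 0.18 on the log2 scale, 2.45-fold (SE, n = 3 per group; limma adjusted p = 0.0287). Its ratios were 0.00, 0.10 and -0.23 in the db/+ mice while obese mice had -1.03, -1.36 and -1.61, without overlap. Its other 2 probes were dim and gave -0.66 and -0.95, also without overlap. On the probe used, Cy5 intensity averaged 0.550 in lean and 0.223 in obese mice.

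PPAR receptors bind, with a partner, to a direct repeat of a 6-letter half-site with 1 letter between the copies. The letters AGGTCANAGGTCA, and TGACCTNTGACCT for the other strand, were searched in the 250 bases before each RefSeq gene start with up to 2 mismatches in the 12 fixed letters. A promoter counted once, by its best match, whichever strand or overlap gave it. Of the 37 listed genes 31 had a promoter in the table, and 2 of these held such a match, Cat and Etfa (6.45%), compared with 3.72% of 27025 genes and 3.24% of 32851 promoters. With up to 3 mismatches the order was the other way, 6 members (19.4%) against 23.7% of genes, and with 0 or 1 mismatch 0 members matched. None of the members that fell was among the matches with up to 3 mismatches. In Cat and Etfa the measured values of obese mice lay below all of those of lean mice, although neither gene passed the test. Cat was measured on only 4 arrays. Of 33 members measured on all arrays 19 showed this pattern, as did 14.7% of all genes. The windows of these 2 matches are shown. They are from GRCm38.p6, written along the gene, with the match in capitals. Cat lies on the minus strand and its window, chr2:103485333-103485369, begins its match 204 bases before the start. Etfa, also on the minus strand, has its match on the opposite strand in chr9:55512296-55512332, beginning 77 bases before the start. A match of letters is a description and shows no binding.
Cat: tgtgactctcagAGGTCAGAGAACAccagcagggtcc
Etfa: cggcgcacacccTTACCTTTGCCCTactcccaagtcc

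The largest fall among the members was that of a peroxisomal enzyme. Phyh, which encodes phytanoyl-CoA hydroxylase and starts the alpha-oxidation of branched chains, fell by 1.34 ± 0.15 on the log2 scale, 2.53-fold (SE, n = 3 per group; limma adjusted p = 0.0201). Its ratios were -0.05, -0.03 and 0.01 in the db/+ mice and -1.11, -1.32 and -1.65 in the db/db mice. The lean mice lay close together and all db/db mice lay more than 2-fold below the lean pool. With db/db replicate 1 as the lone obese mouse set against the lean ones, the log2 fold change of Phyh was -1.09. Over 19 alternatives its limma adjusted p ranged from 0.00553 to 0.156.

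Of the peroxisomal beta-oxidation cycle, Ehhadh, the bifunctional hydratase and dehydrogenase, fell by 0.91 ± 0.11, 1.88-fold (limma adjusted p = 0.023). Its ratios were -0.11, -0.17 and -0.06 against -0.80, -1.13 and -1.14, and the groups did not overlap. Scp2, whose products include the thiolase for branched chains and sterol carrier protein 2, fell by 1.04 ± 0.13, 2.06-fold (limma adjusted p = 0.0244). Its ratios were 0.21, 0.07 and -0.14 against -0.91, -0.89 and -1.18. On 2 arrays the Scp2 probe came to within 1% of the brightest Cy5 value, so the size is approximate. A dimmer probe gave -0.74 ± 0.22 without overlap and was not called among all probes (limma adjusted p = 0.147). Hsd17b4, the second bifunctional enzyme, for branched and very long chains, showed no such separation: its db/db ratios were 0.08, -0.26 and -0.59, on both sides of the db/+ range of -0.05 to 0.01 (-0.25 ± 0.18; limma adjusted p = 0.482).

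The half-transporters that bring acyl-CoA into the peroxisome differed in their values. Abcd2 had ratios of 0.02, 0.08 and -0.24 in the db/+ mice and -0.39, -1.03 and -1.44 in the db/db mice, without overlap but with a wide spread (-0.91 ± 0.29, SE; limma adjusted p = 0.153). Abcd3 had -0.34, -0.24 and -0.01 in the db/db mice, which overlapped the lean mice (-0.16 ± 0.10; limma adjusted p = 0.436). The difference between these genes was not tested. Cat, the catalase that breaks down the hydrogen peroxide formed by peroxisomal oxidation, had values on 4 arrays. They were 0.00 and 0.29 in db/+ replicates 1 and 3 and -0.93 and -1.09 in db/db replicates 2 and 3 (-1.16 ± 0.15, n = 2 per group; limma adjusted p = 0.0616). The value was -0.56 from the Cy5 channel alone and -0.59 with the epididymis covariate described below. On 2 of those arrays its probe came to within 1% of the brightest Cy5 value. Crot, which moves shortened chains onto carnitine for export, had -0.12 ± 0.09 with overlapping groups.

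Among the 8 peroxins 1 fell, 0 rose and 7 did not pass, with a median log2 fold change of -0.45; over all genes 3.77% fell. Pex6, an ATPase that recycles the import receptor Pex5, fell by 0.60 ± 0.07, 1.51-fold (SE, n = 3 per group; limma adjusted p = 0.0203). Its ratios were -0.20, -0.09 and -0.05 in the db/+ mice and -0.61, -0.75 and -0.77 in the db/db mice. Pex11a, which promotes peroxisome division, had -0.81, -0.80 and -0.91 in obese mice, below the -0.06, -0.13 and -0.50 of lean mice (-0.61 ± 0.13, SE; limma adjusted p = 0.0649). Pex3 and Pex19, which insert peroxisomal membrane proteins, had log2 fold changes of -0.37 ± 0.09 and -0.65 ± 0.25, and Pex14, of the docking complex, one of -0.52 ± 0.18. In these 4 genes the groups did not overlap either, which makes 5 of 8 peroxins with all obese below all lean mice, against 14.7% of all genes. In Pex13, also of the docking complex (-0.31 ± 0.19), and in Pex5 (-0.16 ± 0.11) and Pex7 (-0.04 ± 0.04), the import receptors, they overlapped.

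**Figure D2:**
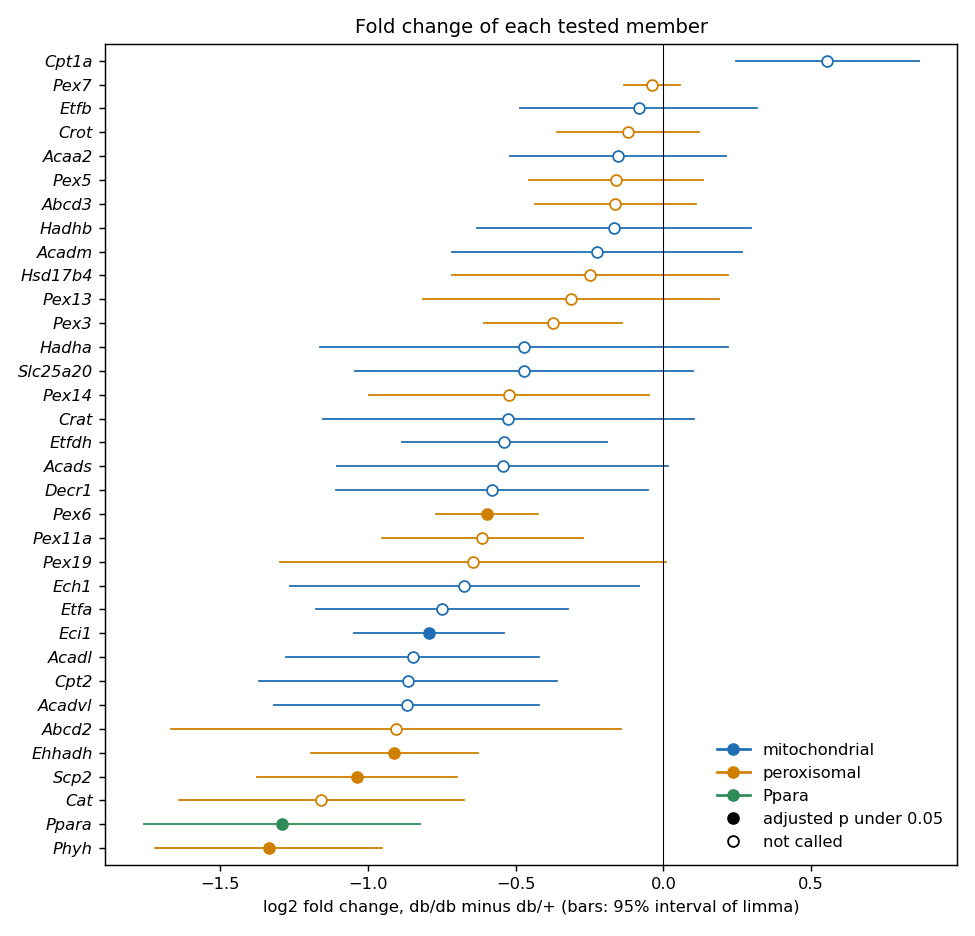
Log2 fold change, db/db minus db/+, of the 34 tested members in order of size, with the 95% interval of limma as a bar and filled points for adjusted p under 0.05. The 6 filled points run from -1.34 (Phyh) to -0.60 (Pex6), and Cpt1a alone lies above 0, at 0.56.

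Mitochondrial and peroxisomal members did not separate as groups. Of 17 tested mitochondrial genes 1 fell, a share near the 3.77% of all genes, with a median log2 fold change of -0.54 and a range of -0.87 to 0.56. Of 16 tested peroxisomal genes 4 fell, with a median of -0.56 and a range of -1.34 to -0.04. All obese mice lay below all lean mice in 9 of 17 mitochondrial and 9 of 15 peroxisomal members measured on all arrays, against 14.7% of all genes. The difference of the medians, mitochondrial minus peroxisomal, was 0.02. By array it was 0.01, -0.01 and 0.05 in the db/+ mice and 0.13, 0.02 and -0.13 in the db/db mice, so its sign differed between db/db mice. It also turned under several alternatives (to between -0.13 and -0.04). The 8 tested peroxisomal enzymes and transporters had a median of -0.91, against -0.45 for the peroxins; this division carries no test.

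The db/db mice differed from one another in the same way in most members. Of 31 members without tied db/db values, replicate 1 was the highest of the obese mice in 26 (83.9%) and replicate 3 the lowest in 26 (83.9%). Over all 12087 genes without ties these shares were 51.3% and 39.7%, and over the 548 of them called lower they were 64.2% and 61.1%. Replicates 2 and 3 both lay below all db/+ mice in 27 of 33 members (25.4% of all genes), and replicate 1 did so in 21 (29.1% of all genes). Replicate 1 lay above all db/+ mice in 5 members (29.3% of all genes): Cpt1a, Acadm, Hadhb, Acaa2 and Hsd17b4. The median over mitochondrial members was -0.04, -0.01 and -0.01 in lean and -0.21, -0.63 and -0.95 in obese mice. For peroxisomal members it was -0.05, 0.00 and -0.06 in lean and -0.34, -0.65 and -0.83 in obese mice.

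Markers of several cell types were read on the same arrays. The median log2 ratio of 12 measured epididymis markers, of 18 listed, was 0.72, 0.07 and -1.81 in lean and -1.68, 3.99 and 4.24 in obese mice. Their summed Cy5 intensity ranged from 1.74 to 12.3 in db/+ and from 1.77 to 170.5 in db/db. With that median as a covariate 4 members fell, Eci1, Ehhadh, Phyh and Pex6, while 1.80% of all genes fell. Where db/db replicate 1, whose epididymis median lay within the lean range, was the only obese mouse in the fit, 5 fell: Cpt2, Acadvl, Ech1, Ehhadh and Phyh (3.86% of all genes). With a single obese mouse, the p-values of that fit rest on the spread of the lean mice. Adipocyte markers (11 of 12 measured) had medians of -0.11, 0.01 and -0.02 in lean and -0.52, -0.98 and -1.32 in obese mice, and summed intensities of 76.5 to 109.3 in db/+ and 36.3 to 45.1 in db/db. Single adipocyte markers went both ways: 5 fell, 1 rose and 5 did not pass (3.77% of all genes fell and 2.92% rose). The 1 that rose was Lep (1.45 ± 0.21; limma adjusted p = 0.0328). Macrophage markers (9 of 10 measured) had medians of 2.12, 0.82 and 1.27 in obese mice and sums of 14.7 to 21.4 in lean and 39.0 to 86.0 in obese mice. Endothelial markers (6 of 7 measured) had medians of -0.18, 0.16 and -0.03 in lean and -0.48, -0.78 and -1.13 in obese mice, and sums of 11.9 to 15.1 and 4.96 to 8.44. In these, as in the adipocyte list and most members, db/db replicate 3 was the lowest and replicate 1 the highest of the obese mice. No marker was at 0 in these lists, though Pnpla2 stayed at or under 0.05 on every array. Cidec, a bright adipocyte marker (mean Cy5 29.2 in db/+ and 20.7 in db/db), had no ratio on db/+ replicate 2 and db/db replicate 1. Cst8 of the epididymis list had none on db/+ replicate 3 and db/db replicate 1. A sum leaves out missing intensities, so the sums of these 2 lists are not strictly comparable between arrays. The part of adipocytes, macrophages and endothelial cells in the members' values was not tested.

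**Figure D3:**
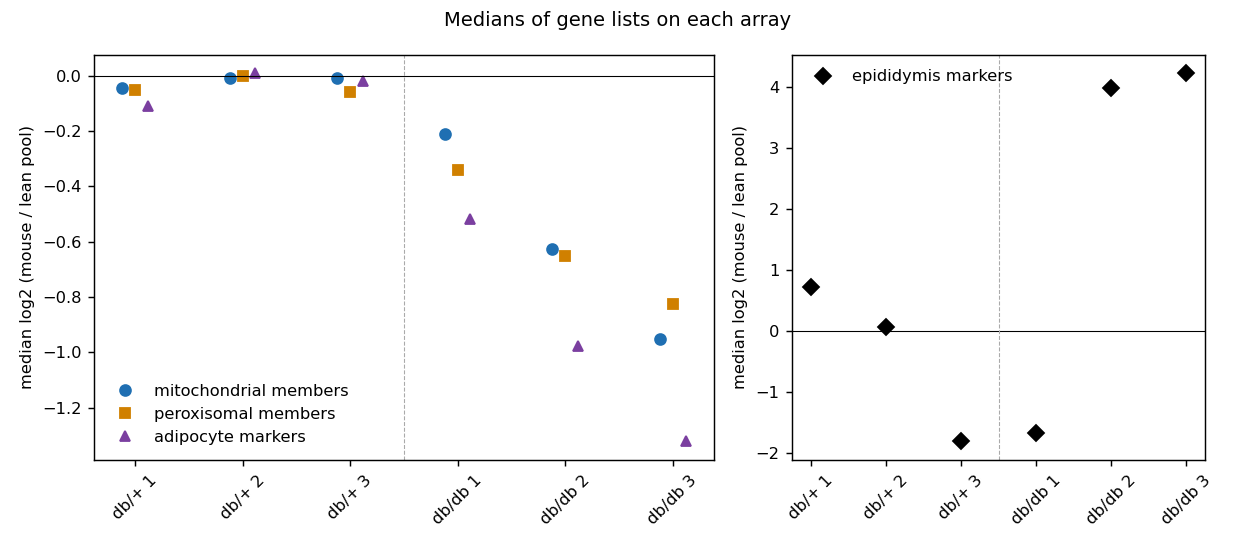
Median log2 ratio of each gene list on each of the 6 arrays; mitochondrial, peroxisomal and adipocyte lists on the left, epididymis markers on a wider scale on the right. The 3 lists on the left are near 0 in db/+; they stand at -0.21, -0.34 and -0.52 in db/db replicate 1 and at -0.95, -0.83 and -1.32 in replicate 3, while epididymis markers are high in db/db replicates 2 and 3.

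Further genes of the same pathways were read from a list of 85 chosen by role, of which 71 were tested. Of these 13 fell and 2 rose (3.77% and 2.92% of all genes), with a median log2 fold change of -0.29. Among peroxisomal genes, those that fell included Amacr, a racemase for branched chains (-0.80 ± 0.09, SE; limma adjusted p = 0.0198), the protease Lonp2 (-0.67 ± 0.11; limma adjusted p = 0.0397) and Paox, a polyamine oxidase (-0.85 ± 0.10; limma adjusted p = 0.0224). Amacr had ratios of 0.11, -0.17 and -0.04 in the db/+ mice and -0.75, -0.88 and -0.89 in the db/db mice, without overlap. No peroxisomal gene on the list rose. By limma 13 of 30 had an unadjusted p under 0.05, against 23.2% of all genes. Among them Hao1 had higher values in obese mice (0.35 ± 0.11; limma adjusted p = 0.155), at dim mean Cy5 intensities of 0.0533 in lean and 0.0867 in obese mice. The others had lower values in obese mice.

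Mitochondrial genes that fell included Echs1, the short-chain enoyl-CoA hydratase (-0.94 ± 0.09, SE; limma adjusted p = 0.017). Its ratios were 0.06, -0.12 and 0.01 in the db/+ mice and -0.92, -0.83 and -1.10 in the db/db mice. Here db/db replicate 1 was as low as replicate 2, unlike in Hadhb, Acaa2 and Acadm. The others were Acadsb, for short branched chains (-1.10 ± 0.10), Acat1 (-0.93 ± 0.13), Acad10 (-0.61 ± 0.09), Hsd17b10 (-0.59 ± 0.08) and the carnitine transporter Slc22a5 (-0.40 ± 0.04). Acadsb had no value on 1 db/+ array and came to within 1% of the brightest value on 2 arrays, and several of these enzymes also serve amino acid breakdown. Acad10 was dim, with mean Cy5 intensities of 0.133 in lean and 0.107 in obese mice, so its size is approximate.

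Cpt1b, the form of the carnitine palmitoyltransferase typical of muscle and brown fat, rose by 0.55 ± 0.05 on the log2 scale (SE, n = 3 per group; limma adjusted p = 0.016). Its ratios were -0.13, 0.00 and -0.05 in the db/+ mice and 0.53, 0.51 and 0.43 in the db/db mice, and Cy5 intensity averaged 0.257 in lean and 0.367 in obese mice. These values come from 1 of 3 probes of Cpt1b, and the others are not given here. Skeletal muscle markers (6 of 8 measured) had summed intensities of 5.05 to 8.18 in db/+ and 1.59 to 4.24 in db/db, and brown or beige adipocyte markers (6 of 8) sums of 2.67 to 3.14 and 0.890 to 1.33. The medians of their log2 ratios did not follow these sums: for muscle they were 0.10, -0.09 and 0.00 in lean and 0.26, 0.16 and 0.00 in obese mice, and for brown or beige adipocytes 0.21, -0.12 and -0.12 in lean and 0.29, 0.00 and -0.33 in obese mice. Single markers of the brown list went both ways: 2 fell and 1 rose (3.77% and 2.92% of all genes). Ucp1 rose by 1.19 ± 0.21 (limma adjusted p = 0.0457), with mean Cy5 intensities of 0.130 in lean and 0.273 in obese mice. Cidea, which is also on the adipocyte list, fell by 2.17 ± 0.23 (limma adjusted p = 0.0194) and Cox8b by 1.83 ± 0.22 (limma adjusted p = 0.0224). The part of these cells in the Cpt1b value was not tested. Mylpf and Tnnt3 of the muscle list and Zic1 of the brown list stayed at or under 0.05 on every array.

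Pex5l, a relative of the import receptor Pex5 known best as a brain protein that binds ion channels, rose by 2.98 ± 0.13 (SE, n = 3 per group; limma adjusted p = 0.00375). Its ratios were 0.00, -0.32 and 0.00 in the db/+ mice and 2.72, 3.04 and 2.86 in the db/db mice. Cy5 intensity averaged 0.0367 in lean mice, a few steps of 0.01, and 0.343 in obese mice, so the size of the rise is approximate. Pex5l had 2 probes, of which only the 1 used is given here.

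Among the regulators of oxidation on that list 3 of 15 fell and 0 rose by limma, against 3.77% and 2.92% of all genes. At an unadjusted p under 0.05 the count was 6, against 23.2% of all genes. Pparg, the adipocyte relative of Ppara, fell by 1.20 ± 0.20 (limma adjusted p = 0.0419) and Ppard, the widely expressed relative, by 0.33 ± 0.06 (limma adjusted p = 0.0432). Ppargc1a, a coactivator of mitochondrial genes, fell by 1.02 ± 0.15 (limma adjusted p = 0.0317), with ratios of 0.29, -0.09 and -0.14 in the db/+ mice and -1.16, -0.90 and -0.93 in the db/db mice. Rxra, the partner receptor of the PPARs, had a log2 fold change of -0.10 ± 0.09 with overlapping groups, Rxrg one of -0.27 ± 0.19 with overlap, and Rxrb one of -0.10 ± 0.03 without overlap. None of the 3, which were picked after their values were seen, passed.

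The number of members that fell varied with the processing, as did the share of all genes that fell. It was 6 with median centring (3.77% of all genes), with the series matrix (3.79%) and with a floor under dim intensities (2.23%). It was 5 for the Cy5 channel alone (1.94%), 7 with all probes of a gene averaged (3.40%) and 9 after loess within arrays (3.55%). Leaving out dim genes gave 12 (6.93%) and let Cpt1a rise (5.02% of all genes rose), and array weights gave 20 (11.8%). The lowest of these weights, 0.235, was that of db/db replicate 1, whose omission gave 21 (11% of all genes). Quantile normalization of the ratios and a trended, robust spread gave 0 in limma for members and all genes, with 12 and 21 members at an unadjusted p under 0.05 (12.8% and 22.9% of all genes).

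**Figure D4:**
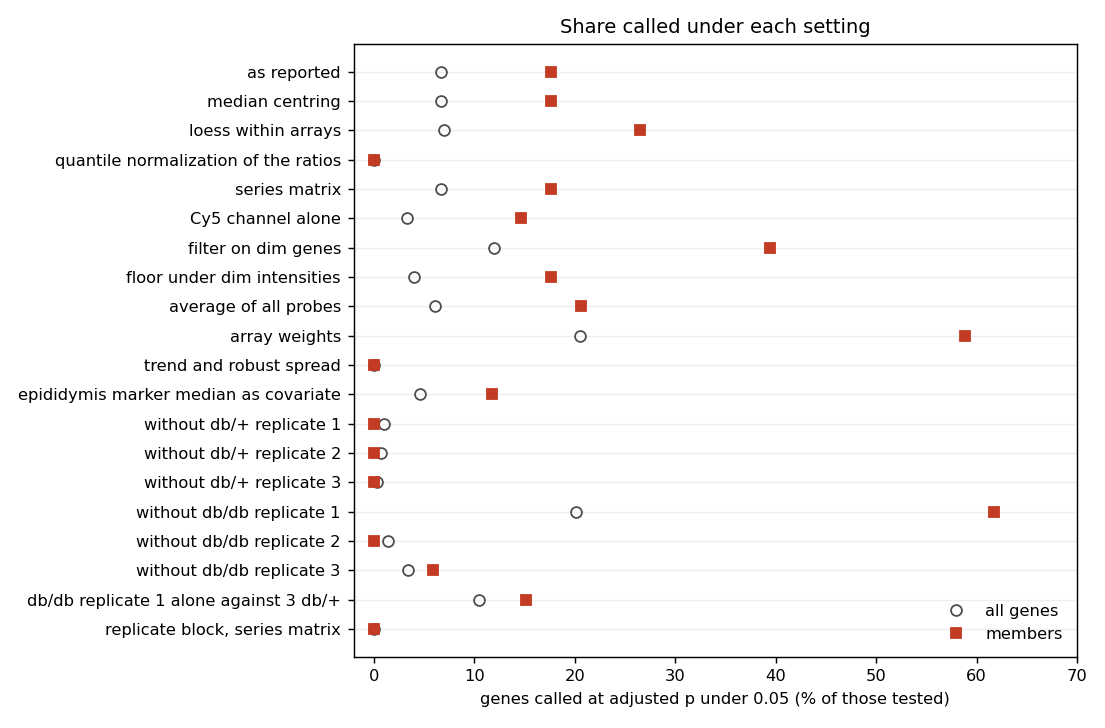
Share of tested genes called at adjusted p under 0.05 under each processing alternative, open circles for all genes and squares for the members. As reported the shares were 17.6% of members and 6.68% of all genes; members ranged from 0% to 61.8%, and settings with few calls among all genes had few among members.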

How the data were processed

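Per the submitters' processing notes the scans of these two-colour arrays went through Agilent Feature Extraction, version 8.5.1.1. Per the labels, RNA went through 2 rounds of amplification. For every probe and array the authors deposited the intensity of both channels and a p-value, which was not used. How background was corrected and arrays normalized is not stated in what was read for this work. A deposited series matrix held log10 ratios. Turned to log2, each of its columns matched 1 array of the table to within 0.0165. It supplied the values given by replicate, since headers of db/db arrays in the table name mice by numbers absent from the labels.

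Ratios were log2 of Cy5 over Cy3 with no filter. Probes were named through a RefSeq table (2217 of 23556 stayed unnamed), and a gene took its brightest probe measured on all 6 arrays, else with at least 2 values per group. limma 3.58.1 in R 4.3.3 compared db/db with db/+ over 17024 genes. Columns were read in Python 3.11.15 with pandas 2.3.3. The fit was tested on simulated data. Replicates are called biological in the labels. The number of arrays limits precision. The named genes were all members, the called genes of the other pathway list and, in any case, Cpt1b, Echs1, Pparg and Ppargc1a; 1 further gene under this rule is not reported here. Rxra, Rxrb, Rxrg, Hao1 and the single cell markers were added after their values were seen. Members and lists were chosen with earlier results of these data known. Alternatives covered scaling, channel, filter, probe, weights, spread, covariate, left-out arrays and a replicate block.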

Additional observations from a re-analysis of the deposited data

How the results depend on the processing

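The 6 called members kept their sign in all 19 alternatives but passed in only 60 of 114 fits, each in 9 to 12; all 54 lost calls were theirs. Median centring changed nothing, since array medians were already 0. Among the 530 values of members not called, 44 passed and 12, in 8 members, turned sign. Quantile normalization turned Etfb (0.033), Pex5 (0.011) and Pex7 (0.047), and the epididymis covariate Hadhb (0.019). Over left-out replicates Etfb ranged from -0.24 to 0.013 and Hadhb from -0.31 to 0.013. With db/db replicate 1 alone the turned values were 0.11 for Acadm, 0.13 for Hadhb, 0.082 for Acaa2, 0.0905 for Hsd17b4, 0.072 for Pex5 and 0.00698 for Pex13. The count of members that fell (6) became 9 after loess within arrays (3.55% of all genes fell). It was 12 with dim genes left out (6.93%), where Cpt1a also rose, 1 higher (5.02% of all genes rose). With array weights it was 20 (11.8%). After quantile normalization of the ratios and with a trended, robust spread it was 0, as over all genes. At an unadjusted p under 0.05 these 2 settings gave 12 and 21 members (12.8% and 22.9% of all genes). For mitochondrial members (1) the counts in the same order of settings were 3, 5, 11, 0 and 0. They were 2 for averaged probes (3.40% of all genes fell) and 0 for Cy5 alone (1.94%). For peroxisomal members (4) they were 8 with array weights (11.8% of all genes fell), 0 after quantile normalization and 0 with a trended, robust spread. Over all genes (1138) the counts were 571 for Cy5 alone, 688 with a floor of 0.05, 3500 with array weights, 1791 for db/db replicate 1 alone and 0 after quantile normalization or with a trended, robust spread; for other pathway genes (15) they were 30 with array weights and 0 in the last 2.

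Leaving out 1 replicate gave 0 to 21 members lower, 0 to 11 mitochondrial and 0 to 9 peroxisomal ones, while 0.135% to 11% of all genes fell. In either direction 54 to 3427 genes in all and 1 to 29 other pathway genes were called. The difference of medians (0.02) reversed to -0.11 after quantile normalization, -0.051 for Cy5 alone and -0.081 with array weights, and ranged from -0.13 to 0.057 over left-out replicates. The peroxisomal median (-0.56) was -0.23 after quantile normalization and -0.35 with the epididymis covariate; in db/db replicate 1 alone it was -0.31, and the mitochondrial median -0.26. The cause was not tested, except that left-out arrays mean fewer samples.

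With the replicate number as a block 0 genes, members and other pathway genes were called (16 members at an unadjusted p under 0.05), among mitochondrial and peroxisomal members likewise 0. Deviations of same-numbered mice correlated at -0.48, -0.41 and -0.02, and those of mice with unlike numbers at -0.31 to 0.44. With 3 mice per group these correlations cannot show whether the number pairs mice. Dim probes move in steps of 0.01, which limits Hadha, Ppara's other probes and Pex5l, and also dim called genes such as Pex6 and Acad10.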
